A study of Drosophila melanogaster with 19 samples.

Results

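The genes described are gcm (FBgn0014179), gcm2 (FBgn0019809), repo (FBgn0011701), loco (FBgn0020278), moody (FBgn0025631) and Eaat1 (FBgn0026439), 6 of the 12679 Drosophila melanogaster genes on the arrays. They were chosen by name, as determinants and differentiation genes of glia, and not by their measured values. Earlier results of these data were known when they were chosen. gcm, gcm2 and Eaat1 lie on chromosome arm 2L, repo and loco on 3R and moody on X. In the RefSeq annotation gcm and gcm2 are close neighbours, with 3 genes between them, 2 of them protein coding.

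Glia are the non-neuronal cells of the nervous system. In the fly embryo nearly all lateral glia depend on gcm, a transcription factor that turns neural precursors towards the glial fate, and on its partially redundant neighbour gcm2. Both are transient and act also in the blood cell lineage. They activate repo, a homeodomain factor that lateral glia keep and that drives their differentiation. Glia of the midline form without gcm and do not make repo. The other 3 genes belong to differentiated cells. loco encodes a regulator of G protein signalling that glia need to insulate the nerve cord, moody encodes a G protein coupled receptor of the blood-brain barrier whose signal loco modulates, and Eaat1 encodes a glutamate transporter of glia. Tramtrack (Ttk), a zinc finger repressor, is made in glia, where it is known to hold down neuronal genes.

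The study used 19 one-colour Affymetrix arrays in 2 experiments and 8 groups, to find genes that respond to Ttk in the tracheal system. In the mutant experiment, grown at 25 °C, the strain ttk2D50 btl-enh-RFPmoe gave 2 arrays of whole embryos and 2 of sorted cells, and its control btl-enh-RFPmoe gave 2 arrays of embryos and 3 of cells. In the over-expression experiment, grown at 29 °C, animals with btl-GAL4, UAS-ttk and btl-enh-RFPmoe gave 3 arrays of embryos and 2 of cells, and its control btl-GAL4 btl-enh-RFPmoe gave 3 arrays of embryos and 2 of cells. All 8 groups thus carried a red fluorescent moesin under the breathless (btl) enhancer, and all 4 groups of the over-expression experiment carried btl-GAL4. Mutant embryos were picked from a balanced stock by the absence of twist-GFP, and the transgene was driven with btl-GAL4 UAS-tau-GFP, so that extra Ttk is expected in the btl domain and not in the whole embryo. A single line stood for each genotype, each array came from a pool of many embryos of mid to late embryogenesis, and RNA of several sorting runs was pooled. The btl enhancer is active in trachea and midline and, as the study states, in other cells too, among them lateral ectoderm, endoderm and amnioserosa. The strain field of the over-expression control cells names ttk2D50 btl-enh-RFPmoe, against their titles, and the growth text describes their control stock in another way again. They were grouped by title.

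The arrays differed in overall level and in a few markers, and these differences touch the glial values. Median log2 expression was 6.17 to 7.69 in the mutant experiment and 8.16 to 9.29 in the over-expression experiment, so levels are compared only within an experiment. The deposited values of ttk did not check the labels. ttk was between 10.42 and 11.44 on all 4 ttk2D50 arrays, against 10.23 to 10.35 in control cells and 8.83 and 11.27 in control embryos, and it was lower on every UAS-ttk array than on every control array of the same material. Whether the array's probes lie in the transgene or in the lesion is not known here, so the groups below are the arrays as labelled. In the over-expression experiment control cells had more of the tracheal genes trh and btl and of the midline gene sim than control embryos, by 1.05, 1.54 and 1.37 on the log2 scale, and less of the mesoderm genes twi and Mef2, by log2 fold changes of -2.90 and -1.97 (limma adjusted p from 3.9e-05 to 0.00026). In the mutant experiment the sort was less clear in trh, btl and sim. Control cells there were higher by 1.06, 0.59 and 1.13, but none passed (limma adjusted p = 0.411, 0.589 and 0.347). Between ttk2D50 cells and ttk2D50 embryos the deposited differences were -0.28 for trh, 0.28 for btl and -0.30 for sim, and none passed. With the all-gene median taken off, these ttk2D50 differences were 0.96, 1.52 and 0.95. dys, a further tracheal gene, did not follow them throughout. Its cells differed from embryos by 0.33 in the over-expression controls (limma adjusted p = 0.0178) and by 1.14 in the controls of the mutant experiment (adjusted p = 0.209). The difference was -0.50 between the UAS-ttk groups (adjusted p = 0.395, limma). In ttk2D50 it was -1.02 (adjusted p = 0.0392, limma), and 0.23 relative to the all-gene median. On such markers 4 arrays stood apart from the rest of their group. The control embryos of the mutant experiment and the UAS-ttk cells had only 2 arrays each. There the values alone do not tell which of the 2 was unusual. Control cell replicate 3 of the mutant experiment had trh at 8.62, against 10.53 and 10.53 on the other control cell arrays, and twi at 8.23, against 6.37 and 6.62. Control embryo replicate 2 of the mutant experiment had ttk at 8.83, against 11.27 on its partner, and srp, a GATA factor of blood and fat body, at 6.87, against 8.99. UAS-ttk embryo replicate 2 had btl at 7.47, against 9.11 and 9.07, and sim at 7.28, against 8.52 and 8.35. UAS-ttk cell replicate 1 had trh at 11.58, against 12.46 on its partner, and btl at 10.41, against 11.29.

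**Figure D1:**
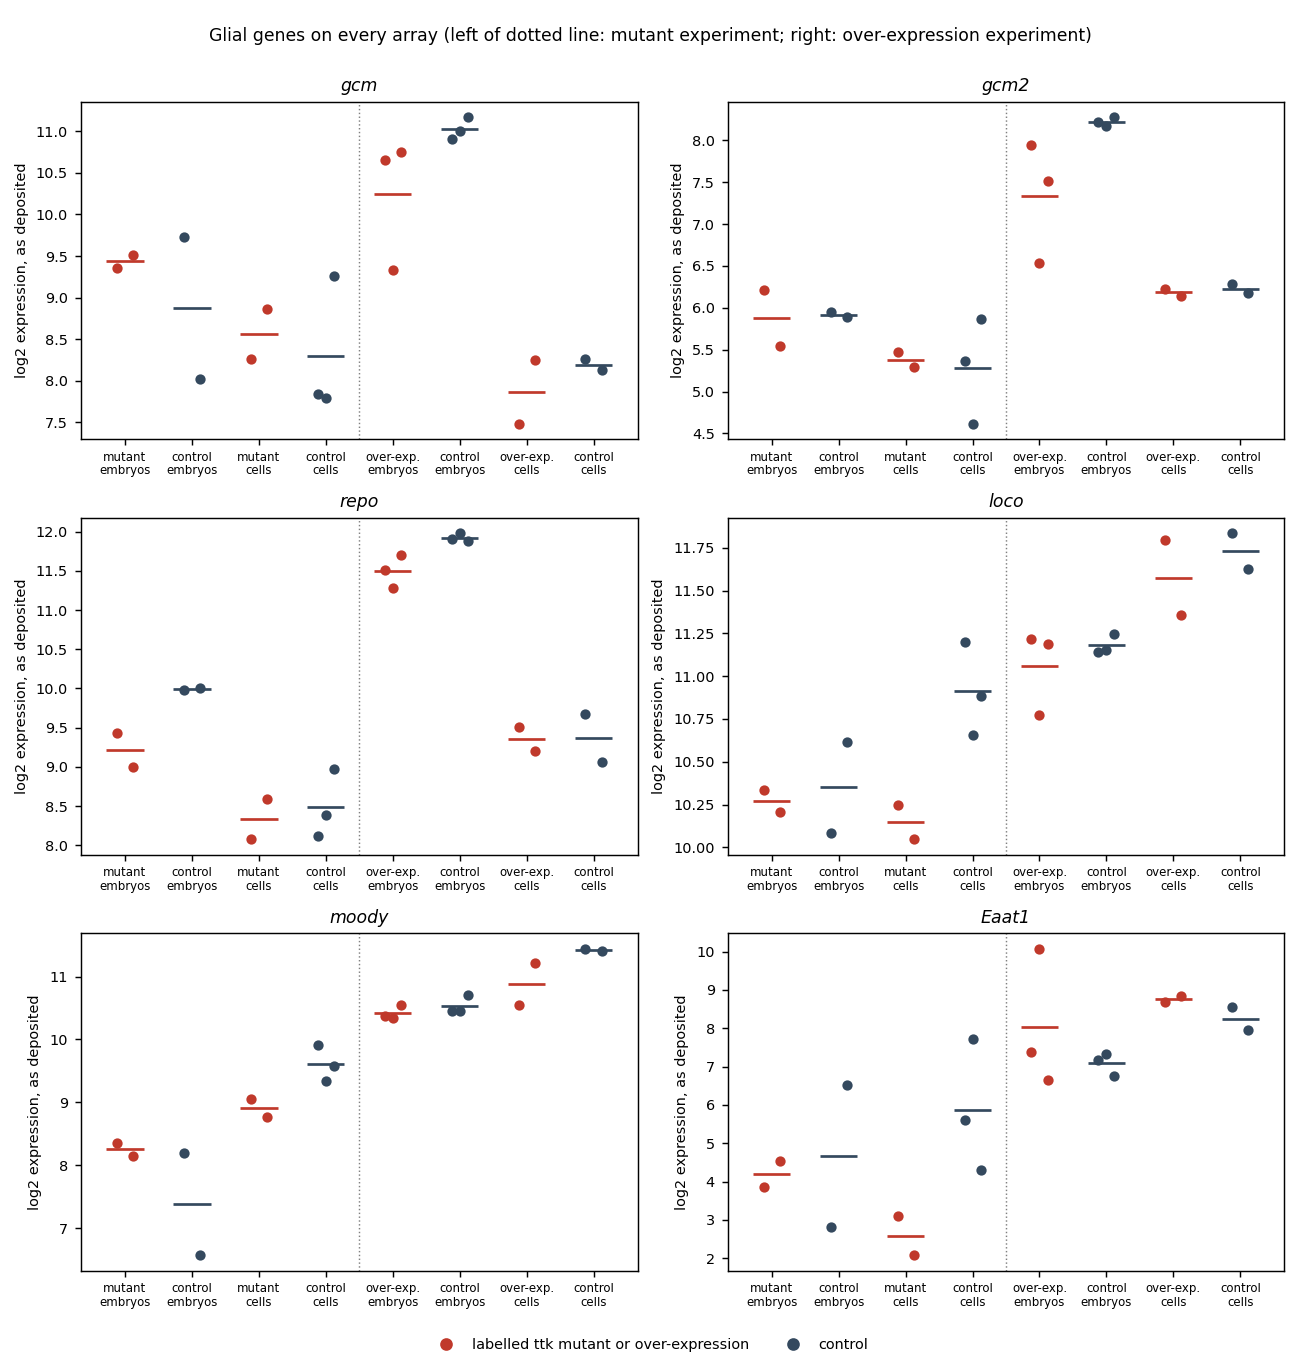
Deposited log2 expression (y axis, a separate range for each gene) of the 6 glial genes on all 19 arrays, by group (x axis). Points are arrays and bars are group means; in the right part of each panel gcm, gcm2 and repo lie lowest in the sorted cells, while loco and moody lie highest in the control cells.

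The 6 genes fell into a pair of patterns between sorted btl-enhancer cells and whole embryos. Among over-expression controls, the sorted cells had 7.11-fold less gcm, 3.99-fold less gcm2 and 5.87-fold less repo than the embryos. In the same cells loco was 1.46-fold higher, moody 1.84-fold higher and Eaat1 2.25-fold higher. All 6 genes passed the test (limma, two-sided, Benjamini-Hochberg adjusted p of 0.05 or below over all genes), but so did 78.5% of all genes, 66.2% of all genes as lower and 12.4% as higher. The count therefore sets the genes little apart from the rest. The sizes depended on the scale. With each array centred on its own median the log2 fold changes were -1.78 for gcm, -0.95 for gcm2, -1.50 for repo, 1.60 for loco, 1.93 for moody and 2.22 for Eaat1, and all 6 were still called. RNA of cells and embryos was extracted by different kits, and only the cells were dissociated and sorted, so that material and preparation cannot be told apart. In bulk RNA, fewer cells of a type and less RNA per cell cannot be told apart either.

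gcm, the glial determinant, was at 8.26 and 8.13 in the control cells of the over-expression experiment, against 10.91, 10.998 and 11.17 in control embryos. The groups lay far apart and the arrays of each lay close together. The log2 fold change was -2.83 ± 0.10 (SE, n = 2 and 3, adjusted p = 2.73e-05 by limma), which is -2.21 once the median over the array, itself -0.62, is subtracted. UAS-ttk cells had gcm at 7.48 and 8.25, against 10.65, 9.33 and 10.75 in UAS-ttk embryos, a log2 fold change of -2.38 ± 0.53 (adjusted p = 0.0243, limma). Every cell array was again below every embryo array, with the embryo array that stood apart nearest to the cells. The share of all genes with such a separation was not counted. Without any 1 of the other 4 arrays gcm was no longer called between the UAS-ttk groups (-2.76 to -1.99, adjusted p = 0.0706 to 0.125, limma), in fits that called 14.8% to 20.2% of all genes. Beside these values, twi and Mef2 were lower in cells than in embryos in the same way, while srp was higher in cells, by 0.83 on the log2 scale in these controls (adjusted p = 0.000461, limma), by 1.10 between the UAS-ttk groups (adjusted p = 0.0825), by 2.64 in the controls of the mutant experiment (adjusted p = 0.106) and by 0.56 in ttk2D50 (adjusted p = 0.0308). srp thus ran with loco and moody in the control groups, and against gcm. The part of these markers in the glial differences was not tested.

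gcm2, its neighbour and partner, was at 6.28 and 6.17 in these control cells, against 8.22, 8.18 and 8.28 in control embryos. The log2 fold change was -1.998 ± 0.07 (adjusted p = 2.68e-05, limma). In UAS-ttk cells it was at 6.22 and 6.14, against 7.95, 6.54 and 7.52 in UAS-ttk embryos, with an adjusted p of 0.093 (log2 fold change -1.15 ± 0.44, limma). Without UAS-ttk embryo replicate 2 the same difference was -1.55 (adjusted p = 0.00665, limma). The signal of gcm2 was dim throughout, with 27.6% to 43.8% of all genes below it on an array.

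repo, the lasting factor of lateral glia, was at 9.68 and 9.06 in control cells, against 11.91, 11.98 and 11.88 in control embryos. UAS-ttk cells had 9.51 and 9.20, against 11.51, 11.28 and 11.70 in UAS-ttk embryos. The 4 cell arrays overlapped each other and lay well below the 6 embryo arrays, a separation whose share over all genes was not counted. The log2 fold changes were -2.55 ± 0.19 between the control groups (adjusted p = 0.000151) and -2.14 ± 0.20 between the UAS-ttk groups (adjusted p = 0.00418, limma). Of all 12679 genes, 38.6% were called between UAS-ttk cells and UAS-ttk embryos, and 2 of the 6 glial genes were, gcm and repo. By rank of signal within an array, repo had 59.1% to 65.9% of all genes below it on the UAS-ttk and control cell arrays, against 80.4% to 89.5% on the embryo arrays. Such a rank shows how bright a signal was and does not compare the abundance of different genes.

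loco and moody, which act in one signalling path, ran the other way. loco was at 11.84 and 11.63 in control cells, against 11.14, 11.15 and 11.25 in control embryos, a log2 fold change of 0.55 ± 0.09 (adjusted p = 0.00276, limma). moody was at 11.44 and 11.40 in control cells, against 10.46, 10.46 and 10.70 in control embryos, a log2 fold change of 0.88 ± 0.10 (adjusted p = 0.000639, limma). Neither pair of groups overlapped, in a comparison that called 78.5% of all genes. The share of all genes without overlap was not counted. Set against the all-gene median the differences were 1.17 for loco and 1.51 for moody. The signal of loco was bright, with 86.9% to 91.7% of genes below it on the UAS-ttk and control cell arrays, against 72.5% to 78.8% on the embryo arrays. In UAS-ttk cells loco was at 11.80 and 11.36, against 11.22, 10.77 and 11.18 in UAS-ttk embryos, and moody at 10.55 and 11.22, against 10.37, 10.35 and 10.54. These differences, 0.52 ± 0.23 and 0.46 ± 0.24 on the log2 scale, did not pass (adjusted p = 0.135 and 0.181, limma).

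Eaat1, the transporter, was at 8.56 and 7.95 in control cells, against 7.17, 7.33 and 6.74 in control embryos. The log2 fold change was 1.17 ± 0.25 (adjusted p = 0.00859, limma). UAS-ttk cells had 8.68 and 8.83, against 7.39, 10.07 and 6.66 in UAS-ttk embryos. There the groups overlapped because of embryo replicate 2, which had the highest Eaat1 of all 19 arrays (log2 fold change 0.71 ± 1.05, adjusted p = 0.607, limma). Without that array the difference was 1.73 (adjusted p = 0.0129, limma), and 4 of the 6 genes were called in place of 2, as were 55.9% of all genes in place of 38.6%.

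**Figure D2:**
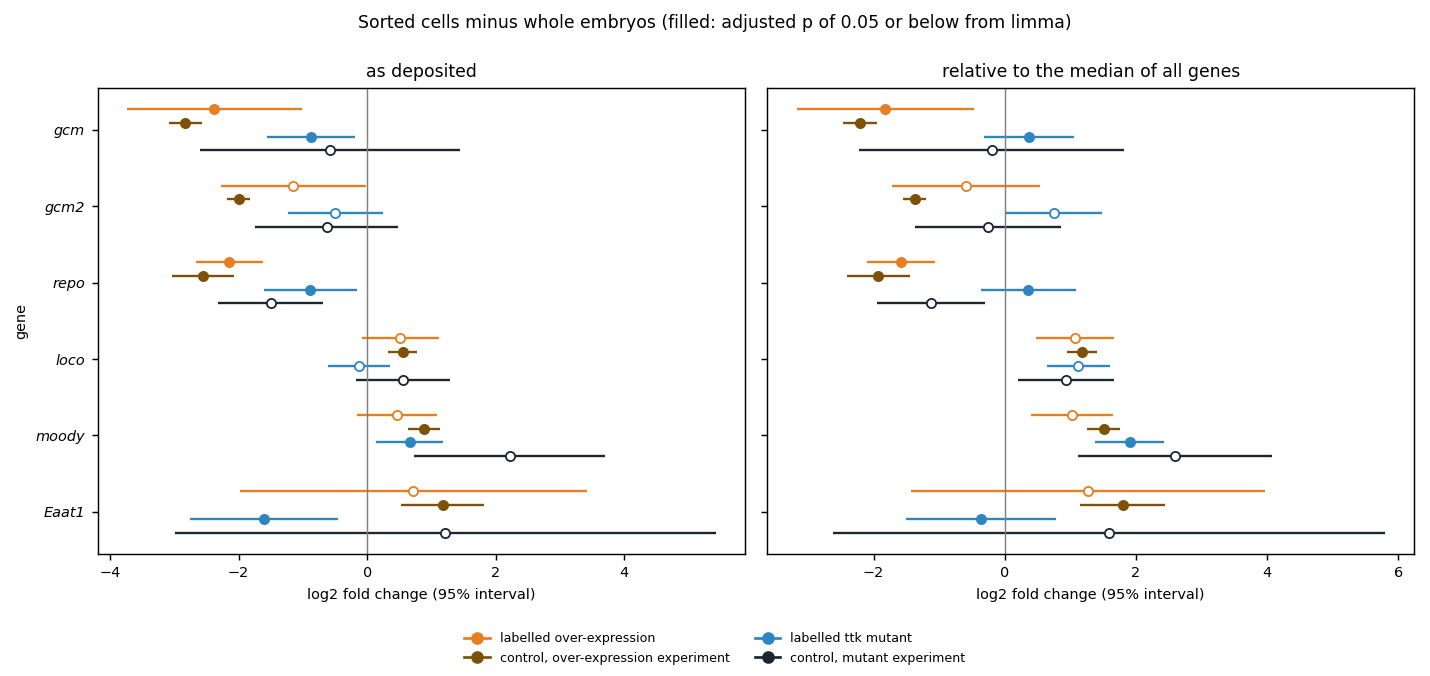
Log2 fold change of sorted cells over whole embryos for each glial gene (rows), as deposited (left) and relative to the median of all genes (right), with 95% intervals from limma; colours are the 4 pairs of groups and filled points passed an adjusted p of 0.05. In the over-expression experiment gcm, gcm2 and repo lie left of 0 and loco and moody right of it in both panels, while in ttk2D50 the side of gcm, gcm2, repo and loco depends on the panel.

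The mutant experiment, with other animals and a lower overall level, gave log2 fold changes of the same sign for all 6 genes between its control cells and control embryos, but no glial gene was called. There 2.02% of all genes were. Relative to the array medians, gcm averaged 1.41 in control cells and 1.44 in control embryos, and gcm2 -1.60 and -1.52, so that both were nearly level. On that scale repo averaged 1.60 and 2.56, loco 4.03 and 2.91, moody 2.72 and -0.05, and Eaat1 -1.01 and -2.77. As deposited, gcm was at 7.84, 7.80 and 9.26 in control cells, against 9.73 and 8.02 in control embryos. The groups overlapped and the log2 fold change was -0.58 ± 0.75 (adjusted p = 0.629, limma). The high cell value and the low embryo value came from the arrays that stood apart. With both left out, as an alternative chosen after the data were seen, the difference was -1.91 (adjusted p = 0.070, limma, 2 cell arrays and 1 embryo array). gcm2 was at 5.36, 4.62 and 5.87 in control cells, against 5.94 and 5.89 in control embryos, a log2 fold change of -0.63 ± 0.41.

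repo did not overlap between the groups, with 8.11, 8.39 and 8.98 in control cells, against 9.98 and 10.01 in control embryos (log2 fold change -1.50 ± 0.30, adjusted p = 0.0788, limma). loco was at 11.20, 10.66 and 10.88 in control cells, against 10.08 and 10.62 in control embryos. moody was at 9.91, 9.34 and 9.58 in control cells, against 8.20 and 6.57 in control embryos. Both lay higher on every cell array, by 0.56 ± 0.27 and 2.22 ± 0.55 (adjusted p = 0.246 and 0.099, limma). The share of all genes without overlap between these groups was not counted. With the 2 arrays left out the moody difference was 1.42. With all 4 groups of the experiment in one fit, which pools the spread, repo and moody were called, with adjusted p of 0.0219 and 0.022, as were 18.6% of all genes. Eaat1 was at 5.61, 7.72 and 4.31 in control cells, against 2.83 and 6.51 in control embryos, a range within each group too wide to order them (log2 fold change 1.21 ± 1.57).

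In ttk2D50 the deposited values of most genes were lower in cells than in embryos. The median over all genes was -1.25 on the log2 scale and 80.8% of genes were called, so that a lower deposited value was the rule. Of the 6, gcm, repo and Eaat1 were called lower and moody higher. gcm was at 8.26 and 8.86 in ttk2D50 cells, against 9.36 and 9.51 in ttk2D50 embryos, and repo at 8.07 and 8.58, against 9.44 and 8.999. Their log2 fold changes were -0.88 ± 0.26 and -0.89 ± 0.27 (adjusted p = 0.0299 and 0.0335, limma), but 0.37 and 0.36 relative to the median of all genes. moody kept its direction on either scale, with 9.06 and 8.77 in cells, against 8.36 and 8.15 in embryos (0.66 ± 0.20, adjusted p = 0.0317, limma, and 1.91 relative to the median). Eaat1 was at 3.11 and 2.08 in cells, against 3.86 and 4.54 in embryos (-1.61 ± 0.44, adjusted p = 0.0226, limma, and -0.36 relative to the median). gcm2, with 5.47 and 5.29 in cells against 6.21 and 5.54 in embryos, and loco, with 10.25 and 10.05 in cells against 10.34 and 10.21 in embryos, were not called. Without either embryo array 0 of the 6 were called, without cell replicate 1 there was 1 and without cell replicate 2 there were 3, while 51.7% to 67.3% of all genes were called in these fits.

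The question of the study was which genes respond to Ttk. Between arrays that differed in ttk, a single glial gene passed the adjusted test in 1 of 4 comparisons, loco in mutant cells. It was lower there, with 10.25 and 10.05 in ttk2D50 cells, against 11.20, 10.66 and 10.88 in control cells. The log2 fold change was -0.76 ± 0.20 (adjusted p = 0.0391, limma). In this comparison 47.2% of all genes were called and the median of all genes was -0.67, so that loco stood at -0.09 relative to that median. It was not called once each array was centred on its median, nor without control cell replicate 1 or 3 or either ttk2D50 cell array, when the difference lay between -0.87 and -0.62 (adjusted p = 0.0757 to 0.185, limma) and 16.1% to 27.4% of all genes were called.

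moody, its partner, was close to loco in mutant cells, with 9.06 and 8.77 in ttk2D50 cells, against 9.91, 9.34 and 9.58 in control cells (-0.69 ± 0.22, adjusted p = 0.0585, limma), and stood at -0.02 relative to the median. It was called when control cell replicate 2 was left out (-0.83, adjusted p = 0.0449, limma), as were 46.9% of all genes. Eaat1 showed the widest gap, with 3.11 and 2.08 in ttk2D50 cells, against 5.61, 7.72 and 4.31 in control cells. Its log2 fold change was -3.29 ± 1.12, with a 95% interval of -6.32 to -0.26 and an adjusted p of 0.0705 (limma). It was the 1 glial gene that met the study's looser candidate rule, a log2 change of at least 1 with an unadjusted p of 0.05 or below, as did 22.4% of all genes. The ttk2D50 values were near the bottom of the arrays, with 25.5% and 5.9% of genes below Eaat1, against 40.6%, 58.0% and 30.3% in control cells, so that the size of the gap rests on dim signal. After quantile normalization its log2 fold change was -2.69 with an unadjusted p of 0.0586 (limma), which misses the candidate rule. srp was lower in ttk2D50 cells too, with 9.45 and 9.35, against 10.87, 10.31 and 10.53 in control cells; the part of blood or other cells in the glial values was not tested.

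The regulators gcm, gcm2 and repo overlapped between the groups of cells on the deposited scale. gcm was at 8.26 and 8.86 in ttk2D50 cells, within the 7.80 to 9.26 of control cells (0.26 ± 0.56). gcm2 was at 5.47 and 5.29, within 4.62 to 5.87 (0.10 ± 0.41). repo was at 8.07 and 8.58, against 8.11 to 8.98 in control cells (-0.16 ± 0.33). The 95% intervals reached from -1.24 to 1.76 for gcm, from -0.997 to 1.19 for gcm2 and from -1.05 to 0.72 for repo, so that each held a log2 change of 1 in at least 1 direction. Set against the all-gene median the differences were 0.93 for gcm, 0.77 for gcm2 and 0.51 for repo, so that the sign of repo turned. With each array centred on its median they were 0.94, 0.78 and 0.52 (adjusted p = 0.392, 0.363 and 0.452, limma).

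In whole mutant embryos no gene of the array was called (limma, 0% of 12679, lowest adjusted p 0.339, 1697 genes at an unadjusted p under 0.05), and no glial gene was among the candidates, which were 9.83% of all genes. With 2 arrays in each group a lack of overlap is weak evidence, and its share over all genes was not counted. repo was the 1 glial gene whose groups did not overlap. It was at 9.44 and 8.999 in ttk2D50 embryos, against 9.98 and 10.01 in control embryos (-0.78 ± 0.28, 95% interval -1.57 to 0.02, adjusted p = 0.373, limma). The other 5 overlapped, and for gcm, moody and Eaat1 the outcome hung on which of the 2 control embryo arrays was kept. gcm was at 9.36 and 9.51 in ttk2D50 embryos, against 9.73 and 8.02 in control embryos. moody was at 8.36 and 8.15, against 8.20 and 6.57, and Eaat1 at 3.86 and 4.54, against 2.83 and 6.51. In each the control pair lay wider apart than the mutant pair, and the mutant pair lay between the controls for Eaat1 and close to control replicate 1 for gcm and moody. Without control replicate 1, which leaves the array that stood apart as the only control, gcm, moody and Eaat1 were called, with log2 fold changes of 1.42, 1.69 and -2.31 (adjusted p = 0.0336, 0.0301 and 0.0452, limma), as were 29.7% of all genes. Without control replicate 2 none was called, and gcm, loco and Eaat1 changed sign, to -0.30, 0.19 and 1.37. gcm2 (6.21 and 5.54 in ttk2D50 embryos, against 5.94 and 5.89 in control embryos) and loco (10.34 and 10.21, against 10.08 and 10.62) differed by less than their spread.

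In UAS-ttk embryos the 3 regulators had lower values than in control embryos, but none passed the adjusted test. gcm was at 10.65, 9.33 and 10.75 in UAS-ttk embryos, against 10.91, 10.998 and 11.17 in control embryos. gcm2 was at 7.95, 6.54 and 7.52, against 8.22, 8.18 and 8.28. repo was at 11.51, 11.28 and 11.70, against 11.91, 11.98 and 11.88. All 3 were lower on every UAS-ttk array than on every control array, as were 23.6% of all genes. Their log2 fold changes were -0.78 ± 0.39, -0.89 ± 0.36 and -0.42 ± 0.13 (unadjusted p = 0.097, 0.0482 and 0.0161, adjusted p = 0.337, 0.285 and 0.219, limma). None was called, where 0.347% of all genes were, and none of the 6 was a candidate, where 3.12% of all genes were.

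UAS-ttk embryo replicate 2 carried much of the size of these differences. Without it the log2 fold changes were -0.32 for gcm, -0.49 for gcm2 and -0.32 for repo, with adjusted p of 0.0903, 0.0803 and 0.0678 (limma). UAS-ttk embryo replicate 2 was also low in markers of other tissues, with twi at 8.07, against 9.10 and 9.18 on the other UAS-ttk embryo arrays, and srp at 9.43, against 10.08 and 10.17. The part of this in the glial values was not tested. The differentiation genes loco (11.22, 10.77 and 11.18 in UAS-ttk embryos, against 11.14, 11.15 and 11.25 in control embryos) and moody (10.37, 10.35 and 10.54, against 10.46, 10.46 and 10.70) overlapped between the groups, with differences of -0.12 ± 0.14 and -0.12 ± 0.11. Eaat1 was at 7.39, 10.07 and 6.66 in UAS-ttk embryos, against 7.17, 7.33 and 6.74 in control embryos. Its difference of 0.96 ± 0.88 came from replicate 2, and was -0.06 without it.

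In UAS-ttk cells no gene of the array was called (limma, 0% of 12679, lowest adjusted p 0.173, 1485 genes at an unadjusted p under 0.05), 2.53% of all genes were candidates and no glial gene was. moody was lower, outside the control values, at 10.55 and 11.22 in UAS-ttk cells, against 11.44 and 11.40 in control cells (-0.54 ± 0.27, adjusted p = 0.525, limma). Most of that gap came from UAS-ttk cell replicate 1, on which trh (11.58, against 12.46 on replicate 2), sim (8.82, against 10.05) and srp (10.49, against 11.51) were low as well. Eaat1 was at 8.68 and 8.83 in UAS-ttk cells, against 8.56 and 7.95 in control cells, also without overlap (0.50 ± 0.25, adjusted p = 0.528, limma). With 2 arrays in each group such a separation is weak evidence, and its share over all genes was not counted. gcm (7.48 and 8.25 in UAS-ttk cells, against 8.26 and 8.13 in control cells), gcm2 (6.22 and 6.14, against 6.28 and 6.17), repo (9.51 and 9.20, against 9.68 and 9.06) and loco (11.80 and 11.36, against 11.84 and 11.63) overlapped. The bounds were closest for gcm2, with a 95% interval of -0.40 to 0.31, and widest for gcm, with -1.17 to 0.51.

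**Figure D3:**
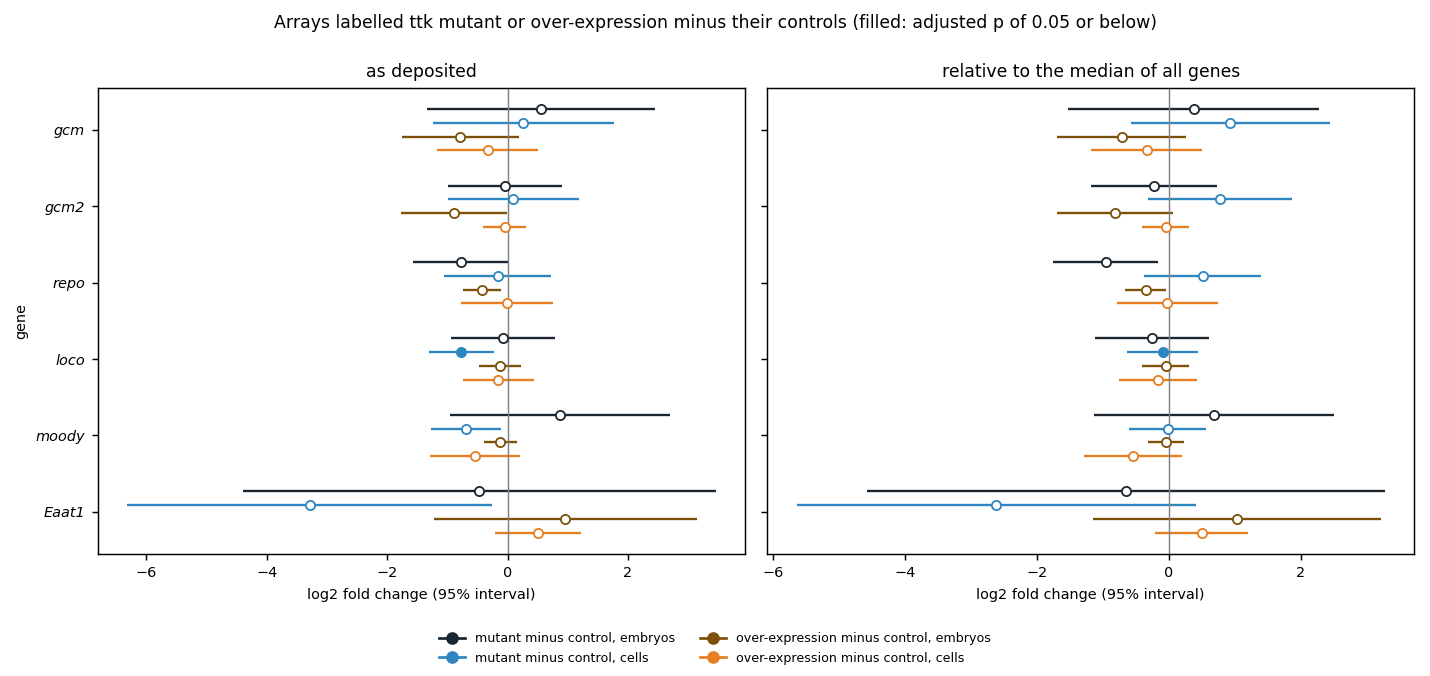
Log2 fold change of arrays labelled ttk mutant or over-expression over their controls for each glial gene (rows), as deposited (left) and relative to the median of all genes (right), with 95% intervals from limma; colours are the 4 comparisons and filled points passed an adjusted p of 0.05. The 1 filled point is loco in mutant cells, at -0.76 as deposited and at -0.09 relative to the median.

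Whether Ttk changed a glial gene differently in the 2 materials was tested, over the 4 groups of an experiment, on the change in cells less the change in embryos. No glial gene was called in the mutant experiment, where 15.4% of all genes were, or in the over-expression experiment, where 0.071% were (limma). On the deposited scale the largest glial differences in the mutant experiment were -2.82 ± 1.89 for Eaat1 (adjusted p = 0.284) and -1.56 ± 0.67 for moody (adjusted p = 0.128, limma), both more negative in cells. The median of all genes was -0.87 there, and relative to it Eaat1 stood at -1.95, repo at 1.48, gcm2 at 1.01 and moody at -0.69. In the over-expression experiment the largest was 0.85 ± 0.48 for gcm2 (adjusted p = 0.590, limma).

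The order of the groups was the same for gcm, gcm2 and repo in the over-expression experiment. From low to high it ran UAS-ttk cells, control cells, UAS-ttk embryos, control embryos, with mean levels for repo of 9.36 ± 0.22, 9.37 ± 0.44, 11.50 ± 0.21 and 11.92 ± 0.06 (SD). On the deposited scale the lowest neighbours, both of cells, overlapped in each of the 3 genes and no other neighbours did. Relative to the array median the order was the same, but control cells and UAS-ttk embryos overlapped for gcm and gcm2. On that scale the cell groups did not overlap for gcm2. moody averaged 10.89 ± 0.47 in UAS-ttk cells, 11.42 ± 0.03 in control cells, 10.42 ± 0.11 in UAS-ttk embryos and 10.54 ± 0.14 in control embryos, and loco had the same order, with both cell groups above both embryo groups and UAS-ttk below control within each material. As deposited, only the step between UAS-ttk cells and control embryos was free of overlap for loco. For moody only the step between UAS-ttk cells and control cells was, while relative to the array median the step to control embryos was free of overlap too. Eaat1 was highest in UAS-ttk cells, followed by control cells, UAS-ttk embryos and control embryos, with overlap at each step but the first. The share of all genes without overlap was not counted for steps between cells and embryos or between the cell groups.

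In the mutant experiment the orders were less clear. repo averaged 8.33 ± 0.36 in ttk2D50 cells, 8.49 ± 0.44 in control cells, 9.22 ± 0.31 in ttk2D50 embryos and 9.99 ± 0.02 in control embryos, with overlap between the cell groups only. moody averaged 8.92 ± 0.20 in ttk2D50 cells, 9.61 ± 0.29 in control cells, 8.26 ± 0.14 in ttk2D50 embryos and 7.39 ± 1.15 in control embryos, with overlap between the embryo groups only. All neighbours overlapped for gcm, and each gap but 1 was bridged for gcm2, loco and Eaat1. Shares of all genes without overlap were not counted in this experiment. Relative to the array median, ttk2D50 cells took the first place for gcm, at 2.35 ± 0.47 above the median, and for gcm2, at -0.82 ± 0.08, so that the place of these cells depended on the scale.

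**Figure D4:**
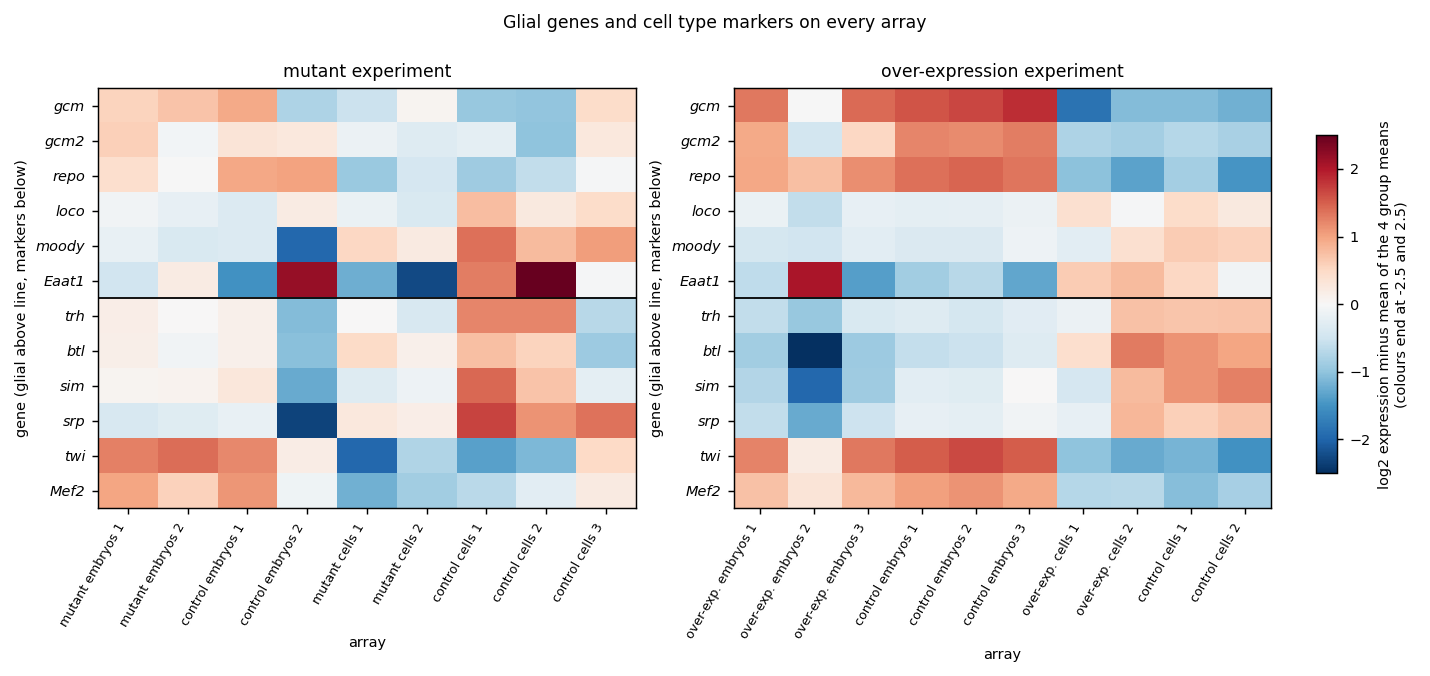
Deposited log2 expression of the 6 glial genes (above the line) and 6 cell type markers (below it) on each array, less the mean of the 4 group means of that experiment; red is above and blue below, and colours end at -2.5 and 2.5. In the over-expression experiment gcm, gcm2 and repo share the red embryo side with twi and Mef2, and the array UAS-ttk embryo 2 differs from its group in gcm, gcm2, Eaat1, btl and sim.

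Across the means of the 8 groups, each array taken relative to its median and each experiment centred on 0, the genes split in a similar way, though not in every pair. This is a description over 8 points, of which each 4 share an experiment. Pearson's r was 0.82 between gcm and gcm2, 0.78 between gcm and repo and 0.67 between gcm2 and repo. gcm2 ranked 158 and repo 236 of 12678 genes for likeness to gcm. Pearson's r was 0.92 between loco and moody, but moody ranked only 1961 for likeness to loco. Between gcm and Eaat1 it was -0.86. The split was weakest for gcm2, with r of -0.12 to loco and 0.03 to moody, and r was -0.31 between gcm and moody. Between moody and Eaat1 it was 0.54. These values rest on the same groups as the differences above. The 2 genes most like each member reached r of 0.94 to 0.998, and the tables used here pair none of these 12 with a name.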

How the data were processed

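RNA of whole embryos and of fluorescence-sorted cells was labelled by the authors and measured on the Affymetrix Drosophila 2.0 array. The deposited values are log2 expression per gene, summarised by the authors with an Ensembl-based custom probe mapping and, per the processing notes, RMA. Scaling between arrays is not given in the sources used here, and 3 arrays of the mutant experiment had been left out by the authors for quality. The labels give 25 ng of RNA per array and the paper another amount.

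The values were tested as deposited, over 12679 genes and without 182 control features. Each comparison was fitted on its 2 groups with limma (version 3.58.1, R 4.3.3), two-sided, with Benjamini-Hochberg adjustment over all genes. Differences between materials were contrasts over 4 groups. A gene was called at an adjusted p of 0.05 or below. Fits were tested on simulated data.

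Replicates are biological per the paper. The number of arrays limits precision, since depth has no meaning for arrays. Centring, quantile normalization, filters on dim genes, a pooled fit, an intensity trend, a replicate block and leaving out each array were tried as alternatives.

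The members, and the lists beside them, were chosen with earlier results of these data known. The genes named are the 6 members, and for each the 2 genes most like it. Of 38 further glial genes listed, only ttk could be paired with an identifier, so that no other glial gene was analysed here. Markers of other cells (trh, btl, dys, sim, srp, twi, Mef2) were paired through the paper.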

Additional observations from a re-analysis of the deposited data

How the results depend on the processing

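Sorted control cells against control embryos of the over-expression experiment gave the same signs in every alternative run. All 6 genes were called in each, except that Eaat1 had an adjusted p of 0.256 (limma) with all 4 groups in one fit, and that the filter at the median removed gcm2 and Eaat1 and left 4 tested and called. In that comparison 63.2% to 87.2% of all genes were called in the alternatives that left out no array. The intensity trend and the filter at the 25th percentile moved no count of glial genes.

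With each array centred on its median, repo in mutant cells was 0.52, and between ttk2D50 cells and ttk2D50 embryos gcm was 0.56, gcm2 0.94, repo 0.54 and loco 1.31. The glial genes called were then 0 in mutant cells, where 5.45% of all genes were, and 2 between ttk2D50 cells and embryos, where 31% were. With this centring the difference of changes in the mutant experiment was 0.58 for gcm and 0.20 for loco. Quantile normalization gave 0.57 for repo and 0.0390 for moody in mutant cells. There 0 glial genes were called, where 6.25% of all genes were, and 0 were candidates, where 1179 of all genes were. In mutant embryos 1 glial gene was a candidate, where 1005 of all genes were. Between ttk2D50 cells and embryos quantile normalization gave 0.54 for gcm, 0.94 for gcm2, 0.53 for repo and 1.18 for loco, with 2 called, where 26.7% of all genes were. The differences of changes were then 0.69 for gcm and 0.40 for loco in the mutant experiment and 0.0063 for loco in the over-expression experiment. Without genes below the median, 0 glial genes were candidates in mutant cells, where 1265 of the 6340 genes kept were. With all 4 groups in one fit 0 glial genes were called in mutant cells, where 27.8% of all genes were. The fit called 2 between control cells and embryos of the mutant experiment, where 18.6% of all genes were called. It called 1 between ttk2D50 cells and embryos (67.2% of all genes) and 4 between UAS-ttk cells and embryos (60.2% of all genes). The cause of these shifts was not tested.

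Whether equal replicate numbers mark paired arrays was not settled, and the main fits treated the arrays as unpaired. Deviations of same-numbered arrays correlated at -0.32, 0.353 and 0.412 in the embryos of the over-expression experiment, and no other comparison had 3 pairs. With a replicate block, which leaves fewer degrees of freedom and drops unpaired arrays, repo in mutant cells was 0.0781. The block called 0 glial genes in mutant cells and 0 between UAS-ttk cells and embryos, where 0% of all genes were called in each. It called 2 between ttk2D50 cells and embryos, where 74.1% of all genes were called. The difference of changes for gcm in the mutant experiment was 0.18 with the block. For ttk2D50 cells and embryos, whose numbers correlated at -0.269, a crossed replicate block, added after the data were seen, called 4. The share of all genes called with the crossed block was not counted.

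Leaving out 1 array at a time gave these ranges. In mutant embryos gcm ran from -0.30 to 1.42, gcm2 from -0.38 to 0.29, loco from -0.34 to 0.19 and Eaat1 from -2.31 to 1.37. In mutant cells gcm ran from -0.0404 to 0.74, gcm2 from -0.24 to 0.39 and repo from -0.42 to 0.0921. Without control cell replicate 1, 0 glial genes were called, where 16.1% of all genes were, and 0 were candidates, where 2529 of all genes were. Without control cell replicate 2, 2 were called, where 46.9% of all genes were, and 1 was a candidate, where 3228 of all genes were. In UAS-ttk embryos loco ran from -0.20 to 0.0220 and Eaat1 from -0.0562 to 1.65. Glial candidates there were 0 without control embryo replicate 1, where 310 of all genes were candidates, and 1 without UAS-ttk embryo replicate 1, where 497 were. In UAS-ttk cells gcm ran from -0.71 to 0.0555, gcm2 from -0.10 to 0.0092, repo from -0.32 to 0.30 and loco from -0.37 to 0.0656. Between control cells and embryos of the mutant experiment gcm ran from -1.43 to 0.28 and Eaat1 from -0.63 to 3.05. Between UAS-ttk cells and embryos 1 glial gene was called without embryo replicate 1, where 14.8% of all genes were, and 4 without embryo replicate 2, where 55.9% were. The difference of changes ran from -1.16 to 0.56 for gcm and -0.19 to 0.47 for gcm2 in the mutant experiment. In the over-expression experiment it ran from -0.0040 to 0.84 for gcm, -0.25 to 0.19 for loco and -1.15 to 0.56 for Eaat1. Where a group kept 1 array, it was assumed to vary like the other groups.

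Counts of all genes called moved too. In mutant cells they were 5984 as deposited, 691 centred, 792 with quantile normalization and 0 with the replicate block. In control cells against embryos of the mutant experiment they were 256, 74, 62 and 0, and 2355 with all 4 groups in one fit. Between ttk2D50 cells and embryos 10246 became 3929 centred and 3391 with quantile normalization, and between UAS-ttk cells and embryos 4899 became 0 with the block and 7632 with all 4 groups. In UAS-ttk embryos 44 became 107 with all 4 groups and 7 with the block, and the 0 of mutant embryos and UAS-ttk cells became 485 and 188 with all 4 groups. The difference of changes called 1954 genes as deposited and 31 centred in the mutant experiment.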
